A study of Drosophila melanogaster with 3 samples.

Results

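The Wingless pathway genes described here are 9 protein-coding genes of Drosophila melanogaster, of 13945 on the 6 chromosome arms. They are wingless (wg), frizzled (fz), frizzled 2 (fz2), arrow (arr), armadillo (arm), naked cuticle (nkd), Notum, Axin (Axn) and shaggy (sgg). They were taken for their place in the pathway and not by a rule on measured values, but with earlier results of these data known. Each symbol matched exactly 1 gene of the annotation. The data were lists of chromatin immunoprecipitation peaks for E(spl)mβ, a basic helix-loop-helix protein that Notch signalling induces and that represses transcription with the co-repressor Groucho. There was 1 group: 3 biological replicates of whole embryos of mixed sex, 0 to 24 h old, from a line with an insertion that stably expresses E(spl)mβ with a green fluorescent protein at its C-terminal end. The labels name the antibody in 2 ways, as one against the tag in the description and as E(spl)mβ-HLH in another field, so whether untagged protein was also precipitated cannot be told from them. The fragments were 200 to 800 bp long. All 3 replicates came from the same transgenic line, in which the labels describe no loss of the untagged protein. Cells of every tissue and stage in that interval were mixed, so a peak says nothing of where or when in the embryo the protein was bound. With 1 group there was no contrast, and all values below are descriptions without a test.

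Wingless is a secreted Wnt protein that signals between neighbouring cells. It binds Frizzled receptors together with the co-receptor Arrow, and this halts a cytoplasmic complex in which Axin holds the kinase Shaggy close to Armadillo, the fly β-catenin. Armadillo that is not marked for degradation enters the nucleus and joins Pangolin, the fly TCF factor, to switch on target genes. Naked cuticle and Notum are induced by the signal and dampen it, Naked cuticle inside the cell through Dishevelled and Notum outside it by removing the lipid that Wingless needs. In the embryonic epidermis the pathway is known for keeping segment boundaries in place and for setting which cells make smooth cuticle.

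The bases at the summits on which the description turns are given first, read from the Release 6 assembly of RefSeq (dm6 coordinates) on the strand of the gene, 5′ to 3′, in lower case. Capitals mark 5 of the sequences searched: CACGCG and CACGTG, forms bound by Hairy and E(spl) proteins, CAGCTG, the E-box of proneural activators, TTCCCAC, the reverse complement of the Su(H) sequence GTGGGAA, and TCAAAG, the reverse complement of the TCF core CTTTGA. The first pair is from wg, where the upstream summit and the intron summit both lay within 1 kb of the transcription start site (TSS), at chr2L:7306974-7307073 (plus strand) and chr2L:7307784-7307883 (plus strand).
wg upstream: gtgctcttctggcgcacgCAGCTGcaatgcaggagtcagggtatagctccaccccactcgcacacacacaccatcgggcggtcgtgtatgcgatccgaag
wg intron: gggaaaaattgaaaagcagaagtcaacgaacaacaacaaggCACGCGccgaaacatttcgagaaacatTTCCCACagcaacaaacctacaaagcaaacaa
The next 4 are the strongest summit inside fz, the 2 strongest of nkd and the strongest of sgg, at chr3L:14304016-14304115 (plus strand), chr3L:19042620-19042719 (minus strand), chr3L:19045557-19045656 (minus strand) and chrX:2646351-2646450 (plus strand).
fz intron: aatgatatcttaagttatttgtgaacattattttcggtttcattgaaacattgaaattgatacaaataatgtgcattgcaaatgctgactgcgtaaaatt
nkd intron: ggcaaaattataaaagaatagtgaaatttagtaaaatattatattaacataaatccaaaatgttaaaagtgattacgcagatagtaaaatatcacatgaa
nkd upstream: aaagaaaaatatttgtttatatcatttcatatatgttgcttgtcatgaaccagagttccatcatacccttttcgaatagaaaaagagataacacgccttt
sgg upstream of an internal TSS: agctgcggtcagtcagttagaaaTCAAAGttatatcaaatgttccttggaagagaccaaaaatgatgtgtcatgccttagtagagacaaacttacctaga
The last 3 show, in 30 bases each, the other CACGCG and CACGTG matches at summits nearest to these genes or inside them, at chrX:1899556-1899585 (minus strand), chr3L:19016368-19016397 (minus strand) and chr3L:16027538-16027567 (plus strand).
arm TSS: tcccgcactccgCACGCGcggtgttgcaag
nkd distal intron: ccaaccagccgaCACGCGctgagccccagc
Notum intron: tccgcgcacgcaCACGTGaaatctttttgt
The wg intron window, with a CACGCG and a Su(H) match, belonged to a summit with a signal of 405. The fz window and both 100-base nkd windows, whose summits had signals of 1722 to 2393, held none of the 5.

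Peaks came in 5 lists. Each replicate list and the list called on the pooled reads held 30000 peaks. The list passed by the irreproducible discovery rate procedure (the IDR list), which compares peak ranks across replicates, held 8549. Each peak has a summit, the position where it is highest, and a signal, the authors' own value for the peak, whose formula is not given in the sources used here. The signals of the IDR list ran from 287 to 19606 with a median of 535. At the members the strongest pooled summit outside the IDR list had a signal of 282, under the lowest of that list. So at these genes the IDR list held the stronger pooled summits, and absence from it does not show poor replicate agreement. The scale differed between replicate lists, with medians of 84.8, 43.1 and 49.6 in replicates 1, 2 and 3, so replicates are compared by rank, where rank 1 is the strongest peak of a list. No peak of one replicate had the same interval and summit as a peak of another. Read totals are unknown.

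Every member had an IDR summit in its body or within 5 kb of it, 9 of 9, beside 59.0% of all protein-coding genes. Within 1 kb of a TSS, 7 of 9 had an IDR summit, beside 32.1% of all genes. The exceptions were fz and Notum. These shares are not like for like, since the median member spans 29.6 kb and the median gene 2.17 kb. Among all genes of 5 to 20 kb, 71.4% had a summit in the window and 45.8% near a TSS, and among those of 20 to 50 kb the shares were 78.5% and 53.0%. Genes over 50 kb, the class of fz and fz2, had 79.1% and 48.0%.

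Together the 9 windows spanned 435.7 kb and held 71 IDR summits, 247 pooled summits, and 278, 238 and 217 summits of replicates 1, 2 and 3. Scaled to length, the median member had 0.157 IDR summits per kb and the median gene 0.0732. In each of the 5 lists, 8 of 9 members lay above the median gene of their own length class. The exception was sgg in the IDR list and Axn in the other 4. The median member stood at percentile 91.5 of its length class in the IDR list, and at percentile 87.4, 88.2 and 76.8 in replicates 1, 2 and 3. IDR summits were 28.7% of the pooled summits at the members and 28.5% of all pooled summits.

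**Figure D1:**
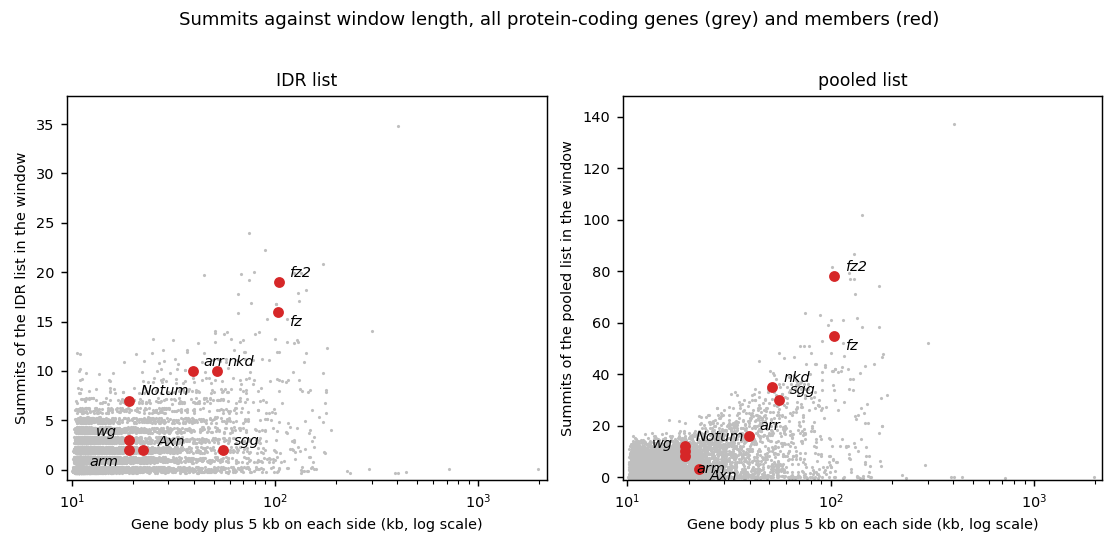
Number of IDR summits (left) and pooled summits (right) against the length of the gene body plus 5 kb on each side, on a log scale, for all protein-coding genes (grey, shifted slightly up or down so that points do not hide each other) and the 9 members (red). The members sgg and Axn are level in the left panel and far apart in the right: sgg holds 2 IDR summits but 30 pooled ones, while Axn holds 2 and 3.

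The ligand gene wg (FBgn0284084, chr2L:7307159-7316265, plus strand, 9.11 kb) had 3 IDR summits, 10 pooled ones and 11, 11 and 7 in the replicates, and no other protein-coding TSS lay in its window. The summit 135 bp before its TSS had a pooled signal of 478, with 289, 114 and 110 in replicates 1, 2 and 3, at ranks 3633, 5095 and 6970. The intron summit 675 bp after the TSS had a pooled signal of 405, with 161, 137 and 111, at ranks 7697, 4009 and 6954. Replicate 1 ranked the upstream summit higher, replicate 2 the intron summit, and replicate 3 placed them almost level, so the replicates gave no common order. Another summit lay 4289 bp before the TSS with a signal of 319. All 3 were found by every replicate within 100 bp, and all 3 had signals under the IDR median. The largest pooled peak that missed the IDR list was in an intron 6524 bp after the TSS, with a signal of 270, and it too was found by all 3 replicates.

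Of the receptor genes, fz (FBgn0001085, chr3L:14274343-14368639, plus strand, 94.3 kb), which also acts in planar cell polarity, had 16 IDR summits and 55 pooled ones, 0.153 IDR summits per kb. Its strongest was in an intron 29723 bp after the TSS, with a pooled signal of 2393 and 1246, 504 and 657 in the replicates, at ranks 301, 482 and 664. The next was 1790 bp before the TSS, with 2261 and 832, 531 and 896, at ranks 651, 433 and 352. Both lay near the top of the pooled list, at ranks 426 and 468, and near the top of every replicate. At the TSS itself no IDR summit was found: pooled summits lay 66 bp before it (signal 144) and 466 bp after it (signal 263). CG13482 starts inside fz and CG13481 beyond its 3′ end, and with these TSSs counted only 4 of the 16 summits were nearest to that of fz.

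The other Frizzled receptor gene, fz2 (FBgn0016797, chr3L:19140975-19235373, minus strand, 94.4 kb), nearly equal in length, had 19 IDR summits and 78 pooled ones, and 82, 70 and 72 in the replicates. That was 0.182 IDR summits per kb, at percentile 96.1 of genes over 50 kb. All 19 lay inside the gene and nearest to one of its own TSSs, and 18 of them were in introns. They gathered at the middle of its 3 TSSs, where 6 lay within 3 kb, while the outer 2 TSSs had 0 IDR summits within 3 kb, and 3 and 2 pooled ones. The summit at the middle TSS, 71 bp inside the transcript, had a pooled signal of 454 and 119, 131 and 77.0 in the replicates, at ranks 10736, 4256 and 9928, so replicate 2 placed it well above the others. The strongest fz2 summit was in an intron 7571 bp downstream of that TSS, with a pooled signal of 1096 and 519, 204 and 370 in the replicates, at ranks 1444, 2240 and 1617. The 2 receptor genes differed in strength: the median signal was 552 over the fz summits and 351 over those of fz2, and 10 of 16 against 4 of 19 were above the IDR median.

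The co-receptor gene arr (FBgn0000119, chr2R:13453640-13483229, minus strand, 29.6 kb) had 10 IDR summits and 16 pooled ones. Its 0.253 IDR summits per kb stood at percentile 97.3 of genes of 20 to 50 kb, and its summits per kb in replicate 3 at percentile 58.6. The summit 41 bp inside its TSS had a pooled signal of 614, with 271 and 170 in replicates 1 and 2, at ranks 3962 and 2913. Replicate 3 had no summit within 100 bp of it. A second summit, 912 bp inside the gene, had a signal of 469 and was found by all 3. In an intron 10715 bp inside the gene lay a summit with 1199, and with 440, 234 and 524 in the replicates, at ranks 1918, 1790 and 935. It was nearer, at 4828 bp, to the TSS of CG43192, which starts inside arr. The 2 strongest summits of the window, with 2754 and 2417, lay beyond the 3′ end of arr, 238 and 441 bp before a TSS of cnn, the centrosomal protein Centrosomin, and only 2 of the 10 summits were nearest to the TSS of arr.

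**Figure D2:**
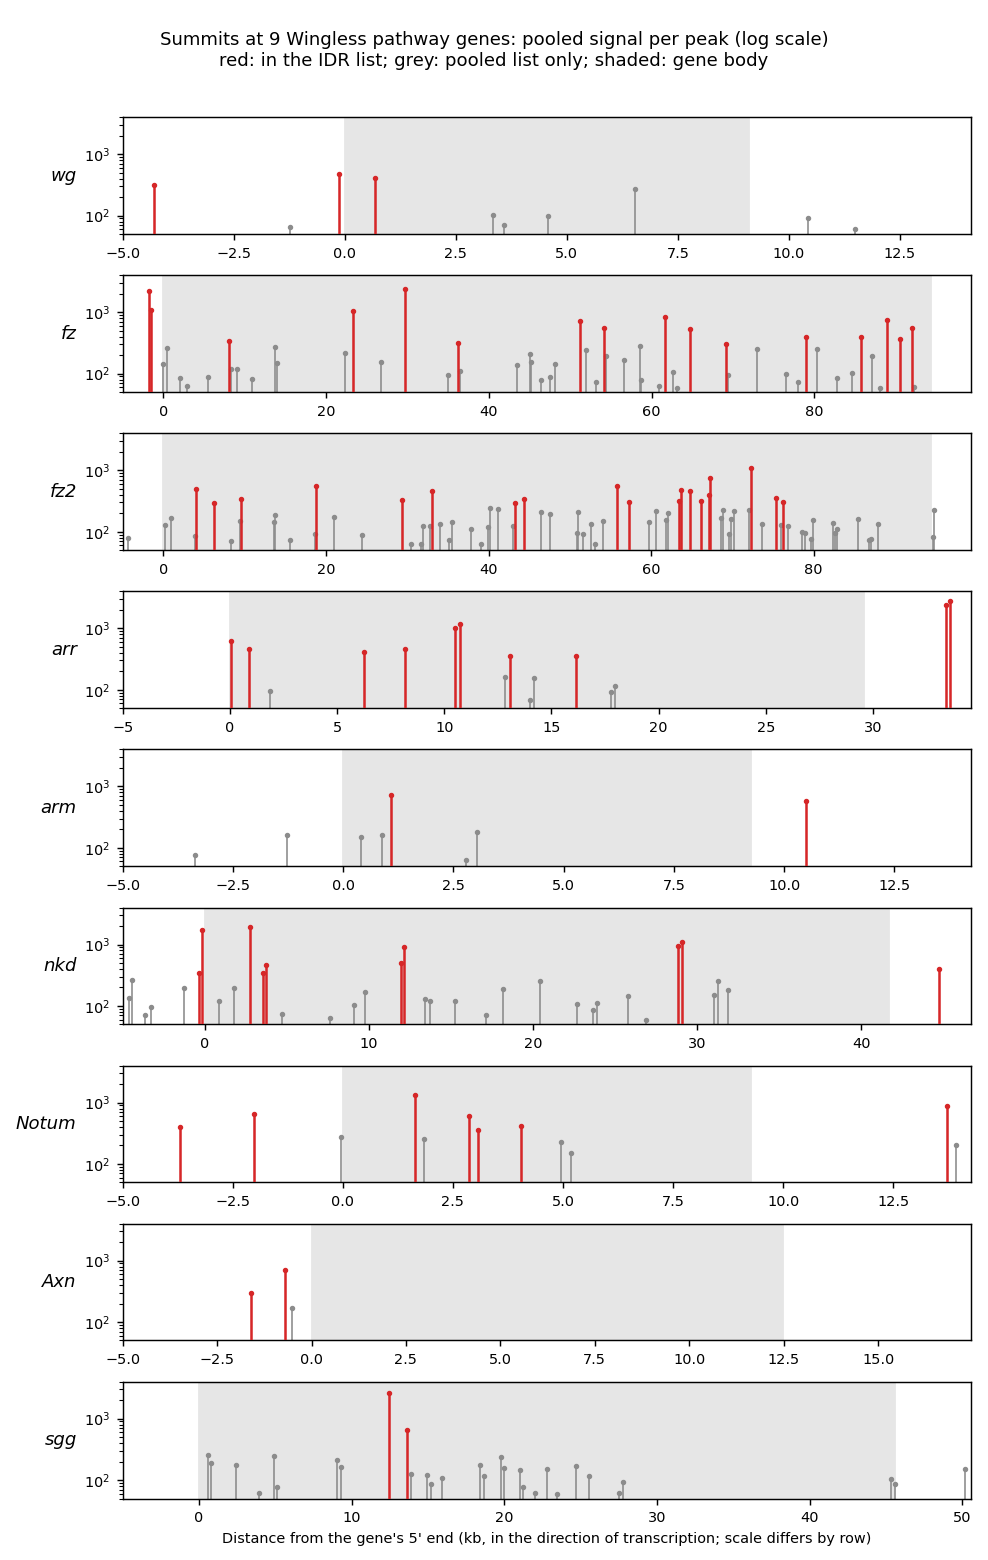
Pooled summits along each of the 9 genes: the horizontal axis is the distance in kb from the gene's 5′ end in the direction of transcription, on a scale that differs by row, and the vertical axis is the pooled signal on a log scale (red, in the IDR list; grey, pooled list only; shaded, the gene body). Red summits run through the bodies of fz and fz2, stand near 1 point of sgg, and lie outside the body of Axn.

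In the cytoplasm, arm (FBgn0000117, chrX:1891401-1900646, minus strand, 9.25 kb) had 2 IDR summits and 8 pooled ones. One lay between 2 of its 4 TSSs, 39 bp inside the first and 47 bp before the second, with a pooled signal of 726 and 359, 177 and 195 in the replicates, at ranks 2619, 2739 and 3743. Its ranks were close together in all 3 replicates, and the CACGCG match shown above began within 2 bp of it. The other, with a signal of 588, lay just before a TSS of mRpL16, a mitochondrial ribosomal protein gene, and replicate 3 had no summit within 100 bp. Asking for support of both other replicates when replicate 1 or replicate 2 was left out therefore lowered the arm count from 2 to 1.

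The scaffold gene Axn (FBgn0026597, chr3R:30022842-30035311, plus strand, 12.5 kb) held no IDR summit in its body, and no pooled one either. Its window held 2 IDR and 3 pooled summits, all before the gene. The stronger was 709 bp before the TSS of Axn but 88 bp from that of Mgat2, an N-glycan processing enzyme gene, with a pooled signal of 713 and 438, 155 and 116 in the replicates, at ranks 1928, 3343 and 6667. It is counted for Axn only by distance. The window held the TSSs of 8 other genes, the most of any member.

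The kinase gene sgg (FBgn0003371, chrX:2633952-2679553, plus strand, 45.6 kb), the fly GSK-3, had 2 IDR summits and 30 pooled ones, so 6.67% of its pooled summits reached the IDR list. By pooled summits per kb it stood at percentile 84.6 of genes of 20 to 50 kb, and by IDR summits at percentile 37.5. One of the 2 was the strongest of all summits whose nearest TSS is a member's. It lay 236 bp before 1 of its 11 TSSs, with a pooled signal of 2599 and 1235, 549 and 827 in the replicates, at ranks 309, 400 and 408. The second lay 970 bp after the same TSS, with a signal of 654. Of the 28 pooled-only summits the strongest had a signal of 252 and was found by all 3 replicates, as were the next 2. The nearest IDR summit outside the window, with a signal of 292, lay more than 5 kb beyond the 3′ end of sgg, just past the window edge.

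The feedback gene nkd (FBgn0002945, chr3L:19003741-19045449, minus strand, 41.7 kb) had 10 IDR summits and 35 pooled ones, 0.193 IDR summits per kb. The summit 158 bp before its TSS had a pooled signal of 1722 and 896, 372 and 495 in the replicates, at ranks 556, 830 and 1025. The one 2779 bp inside, in an intron, had 1946 and 864, 437 and 661, at ranks 605, 645 and 651, nearly the same rank in each replicate. Farther in lay 2 pairs of intron summits, at 11933 and 12140 bp with signals of 509 and 920, and at 28848 and 29063 bp with 946 and 1099. The farther pair was nearer to the TSS of SmydA-2, at 13349 and 13134 bp. Another summit of the window lay 91 bp before a TSS of CG3808, so 7 of the 10 were nearest to the TSS of nkd. In all, 4 pairs of nkd summits were within 300 bp of each other, and 4 of its 10 summits lacked a match in some replicate. Without replicate 1, with support of replicates 2 and 3 required, the count was 6 of 10.

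The other feedback gene, Notum (FBgn0044028, chr3L:16023480-16032752, plus strand, 9.27 kb), had 7 IDR summits and 12 pooled ones. Its 0.363 IDR summits per kb was the highest of the members, at percentile 98.0 of genes of 5 to 20 kb. Its strongest summit was in an intron 1640 bp after the TSS, with a pooled signal of 1319 and 713, 313 and 283 in the replicates, at ranks 866, 1082 and 2353. Another 3 lay in introns up to 4036 bp, and 2 before the gene at 2025 and 3700 bp, so 6 of the 7 were nearest to the TSS of Notum. The seventh, with 891, lay beyond the gene, near CG5895. The count depends on the window: it was 4 with 2 kb on each side or the gene body alone, and 13 with 10 kb. At the TSS itself a pooled summit 37 bp upstream, found by all 3 replicates, had a signal of 271 and did not reach the IDR list.

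**Figure D3:**
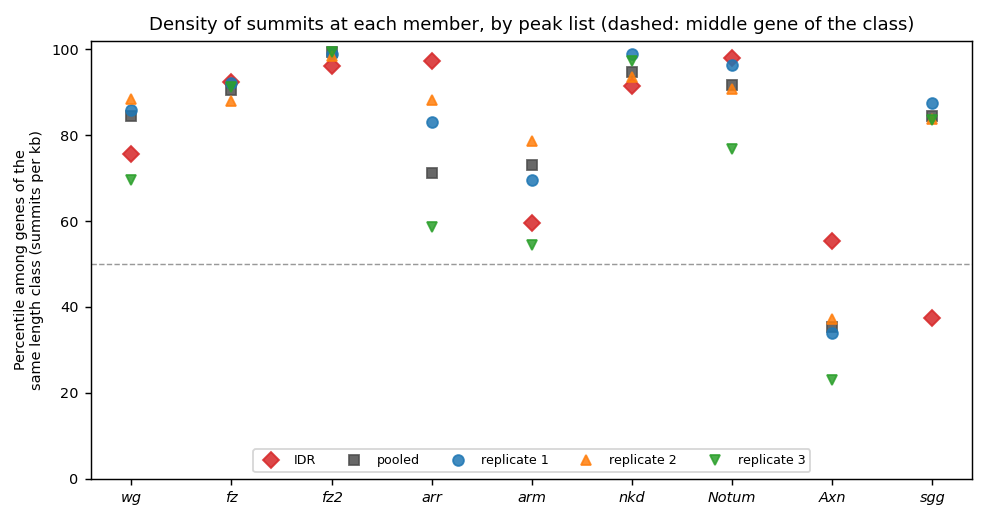
Percentile of each member among genes of the same length class by summits per kb, for the IDR list, the pooled list and each replicate list (the dashed line is the middle gene of the class). The points of fz, fz2 and nkd lie together near the top in all 5 lists, those of arr run from 58.6 to 97.3, and the IDR point of sgg lies apart from its other 4.

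Most of the members' summits were also in the replicate lists. The IDR list was derived from these same replicates, so this is a description and no independent support. Of the 71 IDR summits, 58 (81.7%) had a summit within 100 bp in all 3 replicate lists, 11 in 2 lists and 2 in 1, and over the whole IDR list the share with all 3 was 87.4%. Replicate 1 matched all 71, replicate 2 matched 64 and replicate 3 matched 63. The median matched peak stood in the top 15.2%, 14.9% and 18.3% of replicates 1, 2 and 3. The 2 summits matched within 100 bp by replicate 1 alone were at cnn and CG3808, neighbours of arr and nkd. A peak of replicate 2 also covered the one at cnn. Some missing matches were at summits with another close by. The unmatched summit was the weaker of the pair at fz, and the stronger at Notum and at cnn, beside arr. At nkd both cases occurred, and at fz2 neither summit of a pair was matched by replicate 3. Of the 71, 20 (28.2%) had another IDR summit within 300 bp, beside 17.2% of all IDR summits. Inside a peak of every replicate lay 62 of the 71.

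**Figure D4:**
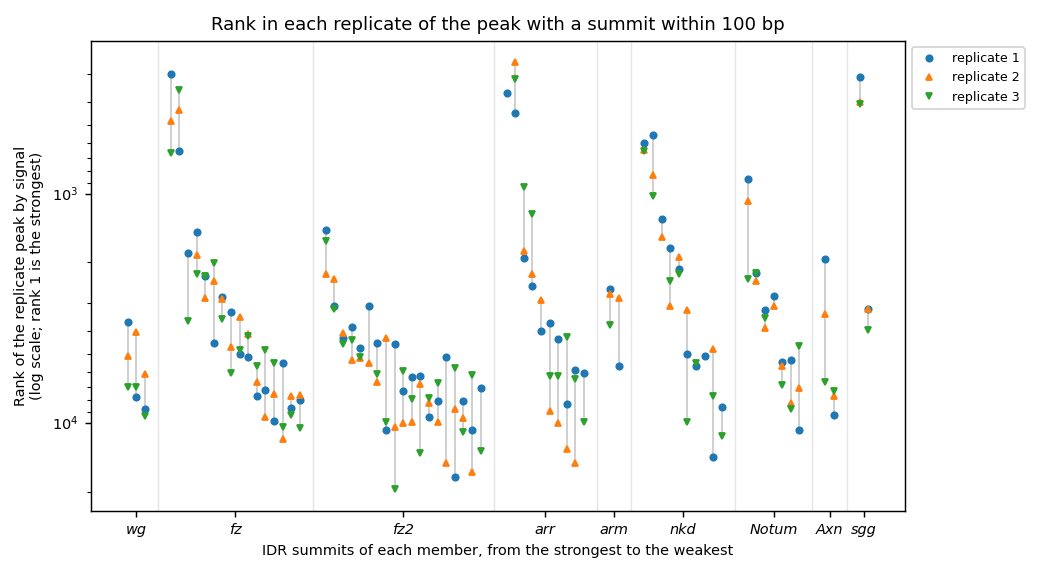
Rank in each replicate (log scale, rank 1 the strongest at the top) of the peak with a summit within 100 bp of each of the 71 IDR summits, grouped by gene and ordered within a gene by pooled signal. A missing marker means no summit within 100 bp. The first summits of fz, nkd and sgg lie high and close together in all 3 replicates, and the weaker summits of fz2 spread over ranks down to 19512.

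By position, 52 of the 71 summits (73.2%) were in introns, beside 37.1% of all IDR summits, and 13 (18.3%) were promoter summits, within 500 bp of a TSS of any gene, beside 41.7%. Another 5 were intergenic and 1 lay in a 3′ untranslated region. Outside the promoter class no summit was in coding sequence. Promoter was assigned first, so promoter summits that lay in exons are counted as promoter. Some of the 13 lay at a TSS of a neighbouring gene and not of a member, namely cnn, CG43192, mRpL16, CG3808 or Mgat2. The bodies of fz and fz2, mostly intron, supplied 14 and 18 of the intron summits. The signals of the 71 had a median of 478, and 33 (46.5%) were above the median of the IDR list, 535.

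In the 201 bases centred on each summit, 9 sequences were searched on both strands. Of the E(spl) and Hairy forms, the shares at the members stood beside those over the whole IDR list as follows: CACGTG at 2 of 71 (2.82%) beside 4.07%, CACGCG at 3 (4.23%) beside 7.23%, and GGCACGTG, which contains CACGTG, at 0 beside 1.30%. With 50 bp on each side of the summit the order of the first 2 was the other way, CACGTG at 2.82% beside 2.35% and CACGCG at 4.23% beside 4.01%. With 150 bp it was 5.63% beside 5.53% for CACGTG and 5.63% beside 9.92% for CACGCG, so with so few summits no difference is read from them. The 3 CACGCG matches, in the windows shown above, began 9, 2 and 1 bp from the summits in wg, arm and nkd. Of the 2 CACGTG matches, 1 was at the summit just before mRpL16, outside arm. The other, in the Notum intron, began 34 bp from its summit. The Su(H) sequence GTGGGAA was at 1 summit (1.41%), the wg intron summit, beside 2.20%. The proneural CAGCTG was at 4 (5.63%) beside 8.06%, among them the upstream summits of wg and sgg.

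The TCF core CTTTGA was at 12 of 71 (16.9%) beside 11.8%, and within introns at 8 of 52 (15.4%) beside 12.8%. With 50 bp on each side it was at 11.3% beside 6.01%, and with 150 bp at 26.8% beside 17.1%. Among the 12 was the summit at cnn, beyond the 3′ end of arr. The summits are few and no test was made, so no enrichment is read from these shares. The TCF helper sequence GCCGCC was at 3 (4.23%) beside 5.52%. At a single summit, 3700 bp before Notum, both occurred. GAGAG, the GAGA factor sequence, was at 20 (28.2%) beside 23.0%, with overlapping matches in runs at fz2, and TATCGATA at 1 (1.41%) beside 2.95%. G and C made up a median of 35.8% of the bases in the members' windows and 34.8% over the IDR list, a measure added after the sequences had been seen. The windows varied widely, from 21.9% at the nkd intron summit to 59.2% at the distal nkd intron summit with the CACGCG.

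The pathway has more genes than these 9, and 43 others were listed by role, with fz3 in both the reception and the Wingless-regulated group. Of them 35 (81.4%) had an IDR summit in the window and 23 (53.5%) within 1 kb of a TSS, beside 59.0% and 32.1% of all genes. Their median of 0.0769 IDR summits per kb was close to the 0.0732 of all genes. The median length was 8.42 kb, so here too longer genes weigh in.

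Among the 6 other ligand genes, 3 had an IDR summit within 1 kb of a TSS: Wnt2 with a signal of 720, Wnt6 with 556 and Wnt5 with 291. Wnt4, which lies near wg, had none there but 7 in its window, and Wnt10 and wntD had 0. Of the 8 genes of ligand export and reception, 5 had one near a TSS, led by dlp with 1756, wls with 533 and dally with 477. The proteins of dlp and dally are glypicans that hold Wingless at the cell surface, and Wntless carries Wnt proteins to it. Of the 9 cytoplasmic genes all had a summit in the window and 8 near a TSS, led by the kinase gene gish with 7142, Apc2 of the Armadillo degradation complex with 1045 and the kinase gene dco with 606. The exception was dsh, which encodes Dishevelled.

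Among the 10 nuclear genes, 5 had an IDR summit near a TSS. The highest signals there were at nej, the acetyltransferase CBP, with 3295, and at gro, the co-repressor Groucho, with 2457. The Mediator subunit gene skd came next with 1221. Elsewhere in the windows, more than 1 kb from a TSS of the gene, signals reached 5611 at osa and 3472 at skd. The gene of the TCF factor itself, pan, had none there and 2 elsewhere in its window. The genes pygo and lgs, whose proteins join the complex through Armadillo, had 0 IDR summits, as did kto. The other 7 of the 10 nuclear genes had one in the window. Of 11 genes known to be regulated by Wingless, 10 had a summit in the window and 3 (27.3%, beside 32.1% of all genes) near a TSS, Dll with 891, fz3 with 337 and en with 324. The homeotic gene Ubx had 2 summits in a window of 87.8 kb, and tsh had 0 IDR and 7 pooled summits.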

How the data were processed

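Per the deposited provenance records, the authors called peaks on dm6 from every single replicate and from the merged alignments, with 1 shared control alignment, and derived the IDR list from these. The aligner and caller, not given in the sources used here, are unknown. The deposited signal of each peak is the authors' own value and served for ranks and descriptions inside 1 list. Depth is unknown. The pooled and replicate lists each hold exactly 30000 peaks, so their length says nothing of it.

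Summits were taken as the start of the peak plus the summit offset and counted in each gene body and 5 kb on each side, with the Ensembl release 115 annotation. The 5 peaks of replicate 1 off the 6 arms were left out. Counts were divided by window length and ranked among all genes and within length classes with edges at 5, 20 and 50 kb. Replicate summits were matched within 100 bp. Promoter means within 500 bp of a TSS. The members and lists were chosen with earlier results of these data known. Genes named were the 9 members and the gene with the nearest TSS to a member's summit. Also named were, per role, the 3 other pathway genes with the highest signal within 1 kb of a TSS. The genes dsh, Wnt4, Wnt10, wntD, pan, pygo, lgs, kto, osa, Ubx and tsh were named after their values were seen. There was 1 group, so no test was made, and separate biosamples per replicate are given by the labels. The counting was tested on simulated data. Python 3.11.15, numpy 2.4.6, pandas 2.3.3 and matplotlib 3.10.9 were used.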

Additional observations from a re-analysis of the deposited data

How the results depend on the processing

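The count of members with an IDR summit in the window was 8 or 9 of 9 under every alternative: Axn was lost with the gene body alone and with summits whose nearest TSS is the member's, and wg with IDR peaks above the median signal. The count with a summit near a TSS was 7 without any 1 replicate, 6 at 500 bp, 9 at 2000 bp and 5 above the median signal. The 71 summits became 56 in the gene bodies, 64 and 88 with 2 and 10 kb on each side, and 58 to 64 without 1 replicate. With 10 kb on each side Notum went from 7 to 13, Axn from 2 to 5, and nkd from 10 to 15. With 2 kb Notum went to 4 and wg from 3 to 2, and in the gene bodies alone wg and arm had 1 and Axn 0. The total fell to 33 above the median signal and to 44 when the nearest TSS had to be the member's. Support by all 3 replicates covered 58 summits within 100 bp, 36 within 50 bp, 66 within 250 bp, 62 by peak interval, and 33 when each replicate list was shortened to its strongest 8549 peaks. The lower counts follow from fewer summits or narrower matching. No paired analysis was possible because there was 1 group. Sets without a replicate are subsets of an IDR list made from all 3, so they do not show what a list made without it would hold.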
